A study of Mus musculus with 6 samples.

Results

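The miR-30 family was examined among the short RNAs bound to Argonaute (Ago) proteins in mouse brain. Its members here were 8 mature miRNAs, mmu-miR-30a-5p, mmu-miR-30b-5p, mmu-miR-30c-5p, mmu-miR-30d-5p, mmu-miR-30e-5p, mmu-miR-30a-3p, mmu-miR-30d-3p and mmu-miR-30e-3p, chosen by their names in the annotation column of the deposited table. They were 8 of the 782 mature miRNAs with a value above 0, and 641 of the 65087 unique sequences above 0 carried their names. Another 39 sequences with these names were listed at 0 in all 6 samples.

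The 6 samples came from 3 WT mice and 3 Tau tg mice. Per the study's methods, both groups were male, 3 months old and on a C57BL/6J background, and the Tau tg mice expressed a fragment of human tau (tau45-230) from the neuronal Thy 1.2 promoter. The WT mice served as controls. Ago proteins were pulled down from brain lysates with a peptide of GW182, a protein that binds all Ago paralogs, and the bound RNA was sequenced. The sample labels named the hippocampus, as did the study's own account of the Tau tg mice. The protocol named cortex and hippocampus combined, so the exact tissue was not fully settled. Levels are in RPM, which the authors obtained by scaling each library to its size.

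miRNAs are cut from hairpin transcripts first by Drosha and then by Dicer, which leaves a duplex of a 5p and a 3p strand. Ago keeps 1 strand of the duplex as a guide and pairs it with target mRNAs mainly through the seed near the 5′ end of the guide. The miR-30 family is expressed in many tissues, including neurons and glia, and its 5p members share a seed, so they can act on overlapping sets of targets. A cut 1 base away at the 5′ end, made by Drosha for the 5p arm and by Dicer for the 3p arm, changes the seed. Bases trimmed from or added to the 3′ end leave the seed as it is.

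RefSeq entries matched 5 of the 8 members. Their mature sequences are shown because the shared seed of each arm, and the few bases that set the members apart, decide which reads can be told apart. Capitals mark the seed, bases 2 to 8 counted from the 5′ end.
mmu-miR-30a-5p: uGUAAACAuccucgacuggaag
mmu-miR-30c-5p: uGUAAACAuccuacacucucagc
mmu-miR-30e-5p: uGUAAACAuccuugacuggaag
mmu-miR-30a-3p: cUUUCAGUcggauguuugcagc
mmu-miR-30e-3p: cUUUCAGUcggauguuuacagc

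The 3 printed 5p members were identical up to base 12, and their first difference lay at base 13. Over 22 compared bases, miR-30a-5p and miR-30e-5p differed at 1 position (C13U, miR-30a-5p first), while miR-30c-5p matched each of them at 17. The printed 3p members also differed at 1 of 22 positions (G18A, miR-30a-3p first). Positions are counted from 1 at the 5′ end. A single sequence of the 641, of 18 nt, was an exact stretch of more than 1 member and had been given to miR-30b-5p. No other sequence was flagged by this exact match. Sequences with an error or an added base could not be flagged in this way, nor could those that run past an end of the reference sequence. Their names were not checked.

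The hairpins are given in RefSeq coordinates of the build GRCm38.p6, with their overlap with the GENCODE M21 annotation. Mir30a lies at chr1:23272269-23272339 on the plus strand, as a gene of its own. Mir30c-2 lies at chr1:23291701-23291784 on the plus strand, inside an exon of the lincRNA Gm27028. Mir30c-1, at chr4:120769534-120769622, and Mir30e, at chr4:120772606-120772697, both lie on the minus strand within introns of Nfyc, which encodes a subunit of the transcription factor NF-Y. Mir30e also overlaps the annotated miRNA gene Mir30f, which lies on the plus strand. The mature miR-30c-5p is the same from Mir30c-1 and Mir30c-2, so its reads cannot be assigned to either hairpin. The Mir30a and Mir30e hairpins are shown because both of their arms are members, with the arms in capitals.
Mir30a: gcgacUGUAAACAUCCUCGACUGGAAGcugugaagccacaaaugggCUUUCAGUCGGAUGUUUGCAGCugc
Mir30e: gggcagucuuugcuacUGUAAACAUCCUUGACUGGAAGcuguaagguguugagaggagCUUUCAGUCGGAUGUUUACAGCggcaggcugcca

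The libraries held between 998248 and 6879551 recovered reads, the deepest being Tau tg 1 (the first Tau tg replicate), and 3 reads corresponded to between 0.427 and 2.75 RPM. The number of member sequences seen was highest in this deepest library, at 534, and lay between 296 and 399 in the others. All 5 miRNAs listed as neuronal markers were above 0 in every sample, with a summed level of 142972 to 152905 RPM among WT mice, against 142722 to 160128 RPM among Tau tg mice. Of 7 marker lists, only that for pituitary or epithelium did not overlap between the groups, at 1940 to 6753 RPM among WT mice against 1594 to 1690 RPM among Tau tg mice. All of its 5 miRNAs were above 0 in every sample, 3 of the 5 had an unadjusted limma p under 0.05, and 0 passed after adjustment. WT 2 and WT 3 held the high values of this list. Its part in any difference below was not tested.

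The miR-30 family was a sizeable part of the Ago-bound pool. The 8 members took up 3.21%, 2.79% and 3.06% of all reads among WT mice, against 4.11%, 2.63% and 3.20% among Tau tg mice, in the order of the replicate numbers, as are all lists of values below. WT mice averaged 3.02% ± 0.216 (SD, n = 3) and Tau tg mice 3.31% ± 0.747 (SD, n = 3). Tau tg 1 was the highest and Tau tg 2 the lowest of the 6 mice, so the Tau tg values enclosed the WT values.

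The most abundant member was miR-30c-5p, the rank 28 miRNA of the table by mean level. It stood at 9137, 7628 and 7534 RPM among WT mice, against 12424, 7130 and 9667 RPM among Tau tg mice. Its level exceeded that of every other member in each of the 6 mice. The Tau tg values lay on both sides of the WT values. miR-30d-5p was next, at 7029, 4936 and 6119 RPM among WT mice, against 7338, 5277 and 4713 RPM among Tau tg mice. miR-30b-5p stood at 4983, 4511 and 4542 RPM among WT mice, against 7338, 4602 and 6309 RPM among Tau tg mice. Only Tau tg 2 kept the groups of miR-30b-5p from separating, with a value between those of WT 1 and WT 3.

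For miR-30e-5p the levels were 4548, 4587 and 4968 RPM among WT mice, against 6415, 3712 and 5143 RPM among Tau tg mice. miR-30a-5p was the lowest of the 5p arms, at 3891, 3576 and 3748 RPM among WT mice, against 5590, 3514 and 3944 RPM among Tau tg mice. Levels of miR-30d-5p, miR-30b-5p and miR-30e-5p overlapped over the 6 mice, and their order changed from mouse to mouse. The order of miR-30e-5p and miR-30a-5p did not, since miR-30e-5p was 1.06 to 1.33 times as high as miR-30a-5p in each of the 6 mice.

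The 3p arms of miR-30a and miR-30e were lower than every 5p arm. miR-30a-3p stood at 667, 333 and 573 RPM among WT mice, against 595, 691 and 583 RPM among Tau tg mice, with WT 2 as the lowest sample. miR-30e-3p stood at 602, 598 and 509 RPM among WT mice, against 522, 427 and 500 RPM among Tau tg mice. Its groups overlapped only through WT 3, which was lower than Tau tg 1. The ratio of miR-30a-3p to miR-30e-3p was 1.11, 0.557 and 1.13 among WT mice, against 1.14, 1.62 and 1.17 among Tau tg mice. All 3 Tau tg ratios lay above the WT ratios, by little between WT 3 and Tau tg 1, and this ratio was not tested. miR-30d-3p was near the limit of detection, at 15.9, 31.8 and 6.42 RPM among WT mice, against 13.4, 4.18 and 4.09 RPM among Tau tg mice. These values rested on 34, 47 and 7 reads among WT mice, against 94, 5 and 10 reads among Tau tg mice.

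**Figure D1:**
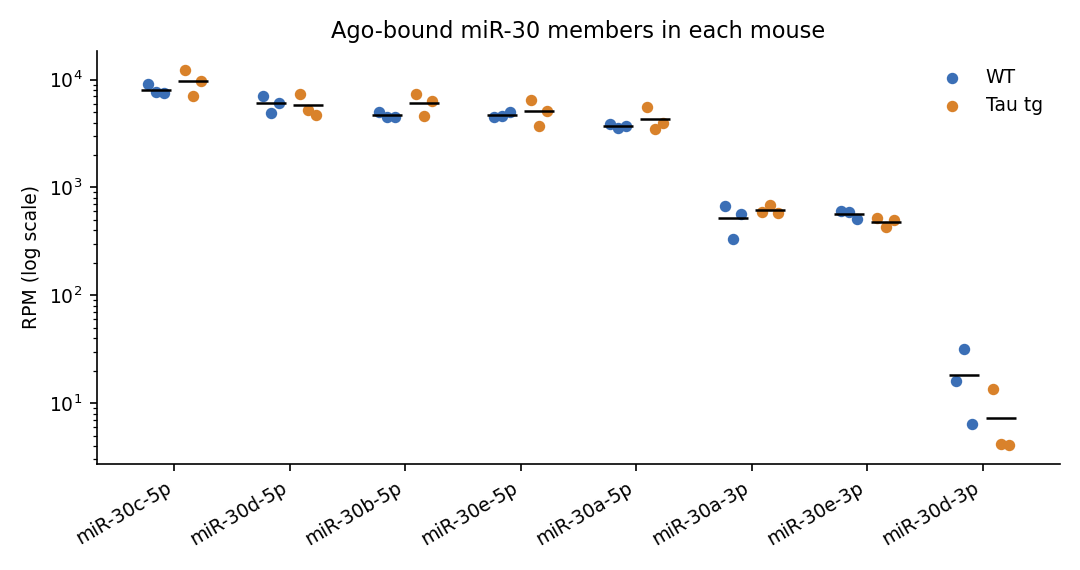
RPM of the 8 miR-30 members in each mouse on a log scale, with WT in blue, Tau tg in orange and a bar at each group mean. The 5p arms lie between 3514 and 12424 RPM, the 3p arms of miR-30a and miR-30e between 333 and 691 RPM, and miR-30d-3p at or below 31.8 RPM, with both groups overlapping for every member.

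The comparison of Tau tg with WT asked whether the level of each member in the Ago-bound pool differed with the tau transgene. No member had a difference beyond the spread that the test assigned to it. With limma on log2(RPM + 1), fitted across 689 mature miRNAs, 0 of 8 members had an adjusted p under 0.05 and 0 of 8 had an unadjusted p under 0.05. Of all miRNAs tested, limma gave 25 (3.63%) an unadjusted p under 0.05 and 0 (0%) an adjusted one. edgeR and DESeq2 on recovered reads also gave 0 of 8 members by either measure. Over all miRNAs, edgeR called 28 without and 0 with adjustment, and DESeq2 called 37 and 5. The groups did not overlap for 0 of the 8 members, against 45 (9.53%) of the 472 miRNAs above 0 in all samples. In these bulk samples fewer cells of a type and less RNA per cell cannot be told apart. The p-values set each difference against a spread that is partly borrowed from the other miRNAs tested, with 3 libraries in each group. They are not a measure of the member's own spread alone.

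The limma fold changes of the members were positive for 5 and negative for 3, with a median of 0.14 on the log2 scale, against 0.25 for all miRNAs tested. miR-30b-5p had the highest, with a log2 fold change of 0.35 ± 0.30 (SE; limma adjusted p = 0.896). The estimate for miR-30a-3p was 0.30 ± 0.36, that for miR-30c-5p 0.24 ± 0.31 and that for miR-30a-5p 0.19 ± 0.30. Single libraries moved these: miR-30a-3p stood at 0.0069 without WT 2, and without Tau tg 1 miR-30b-5p stood at 0.21, miR-30c-5p at 0.041 and miR-30a-5p at -0.0052. Median-of-ratios scaling lowered them too, to 0.14 for miR-30a-3p, 0.19 for miR-30b-5p, 0.074 for miR-30c-5p and 0.029 for miR-30a-5p. miR-30e-5p stood near 0, at 0.08 ± 0.31. That estimate changed sign with the scaling, to -0.081 with median-of-ratios scaling. miR-30d-5p, at -0.07 ± 0.31, and miR-30e-3p, at -0.24 ± 0.34, were on the negative side. The estimate for miR-30d-3p was -1.15 ± 1.09, the widest error of the 8. Adjusted p-values of the members ran from 0.896 to 0.966.

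**Figure D2:**
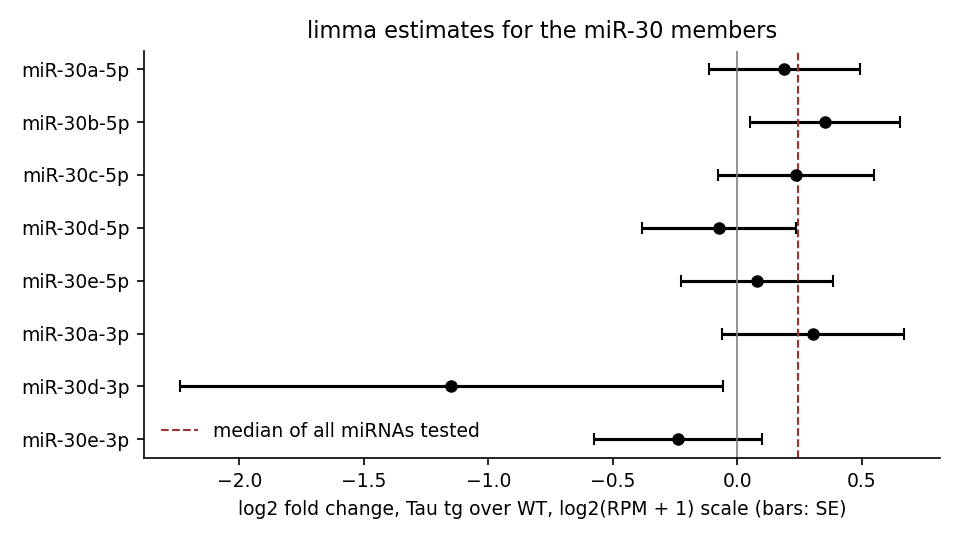
limma log2 fold changes of Tau tg over WT on the log2(RPM + 1) scale for the 8 members, with bars of 1 SE and a dashed line at the median of all 689 miRNAs tested. The 5p estimates lie between -0.07 and 0.35, and among them only that of miR-30b-5p lies above the line at 0.25. miR-30d-3p stands apart at -1.15 with an SE of 1.09.

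Summed over the 5p arms, the family stood at 29588, 25239 and 26912 RPM among WT mice, against 39106, 24236 and 29775 RPM among Tau tg mice. Tau tg 1 was the highest and Tau tg 2 the lowest of all 6. The mean difference on the log2 scale was 0.16 (two-sided exact permutation test over 20 assignments, p = 0.6, n = 3 in each group), where 3 against 3 can go no lower than 0.1. Leaving out Tau tg 1 gave -0.017, and median-of-ratios scaling of all samples gave 0.0017. The summed 3p arms were close between the groups, at 1112 ± 162 RPM among WT mice, against 1113 ± 22.3 RPM among Tau tg mice (SD, n = 3).

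Shares within the family do not depend on the scaling to library size. miR-30c-5p made up the largest part of the 5p reads, 29.7% ± 1.51 among WT mice, against 31.2% ± 1.60 among Tau tg mice (SD, n = 3). miR-30b-5p made up 16.8%, 17.9% and 16.9% among WT mice, against 18.8%, 19.0% and 21.2% among Tau tg mice. The 3 Tau tg values all lay above the 3 WT values. The difference of 2.45 percentage points reached the smallest p of the design (exact permutation test, p = 0.1, adjusted p = 0.5 over the 5 members, n = 3). miR-30d-5p went the other way, with 23.8%, 19.6% and 22.7% among WT mice, against 18.8%, 21.8% and 15.8% among Tau tg mice (exact permutation test, p = 0.2, adjusted p = 0.5, n = 3). The shares sum to 100%, so they are not independent of each other. The ratio of miR-30b-5p to miR-30d-5p was 0.709, 0.914 and 0.742 among WT mice, against 1.0, 0.872 and 1.34 among Tau tg mice, and here the groups overlapped through WT 2 and Tau tg 2. The shares of miR-30a-5p and miR-30e-5p had exact p-values of 0.5 and 0.4. The widest 95% Wilson interval of these shares was 0.525 percentage points to either side, which covers counting error only, since reads without molecular identifiers are not independent molecules.

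The share of the 3p strand among the reads was taken as a guide to how often Ago held the opposite strand of a duplex. How evenly both arms were ligated and amplified was not measured. Among the 3 hairpins with both arms as members, this share was far lower for miR-30d than for miR-30a and miR-30e. For miR-30a the 3p arm gave 14.6%, 8.51% and 13.3% of the 3p plus 5p reads among WT mice, against 9.61%, 16.4% and 12.9% among Tau tg mice. WT 2 was low and Tau tg 2 high, and the groups overlapped (exact permutation test, p = 0.8, n = 3). For miR-30e the share was 11.7%, 11.5% and 9.30% among WT mice, against 7.53%, 10.3% and 8.87% among Tau tg mice. The Tau tg mean was lower by 1.94 percentage points, with an overlap of WT 3 and Tau tg 2 (exact permutation test, p = 0.2, adjusted p = 0.3 over 3 hairpins, n = 3). For miR-30d it stayed under 1% in every mouse, at 0.226%, 0.641% and 0.105% among WT mice, against 0.182%, 0.0792% and 0.0867% among Tau tg mice. The miR-30d share was below the miR-30a and miR-30e shares in each of the 6 mice. For miR-30b and miR-30c, whose 3p arms are not members, it ran from 0.0202% to 0.506% and from 0.152% to 1.10%, overlapping that of miR-30d.

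**Figure D3:**
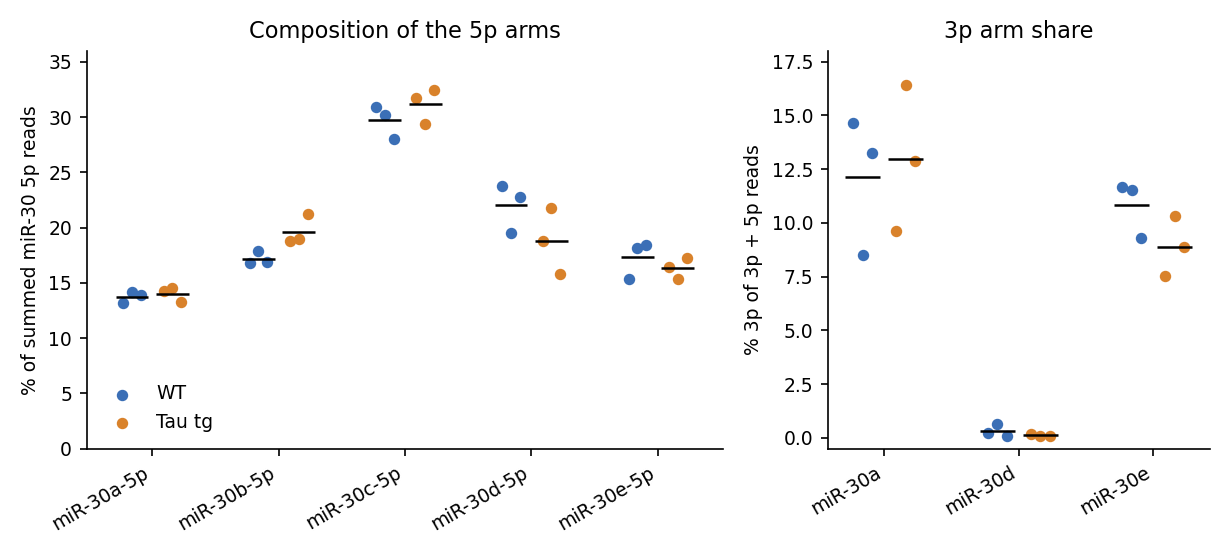
Left, the percent of summed 5p reads that each 5p member gave in each mouse; right, the 3p reads as a percent of 3p plus 5p reads for miR-30a, miR-30d and miR-30e, with WT in blue, Tau tg in orange and bars at group means. miR-30b-5p is the member whose groups do not overlap, at 16.8% to 17.9% among WT mice, against 18.8% to 21.2% among Tau tg mice, and the miR-30d 3p share lies under 1% in all mice.

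Each member was a population of reads that mostly began at the same base and ended at different ones. The most abundant reads are shown because they differ from the RefSeq ends. In reads, capitals mark the 6mer seed, bases 2 to 7.
miR-30a-5p, 20 nt: uGUAAACauccucgacugga
miR-30e-5p, 20 nt: uGUAAACauccuugacugga
miR-30c-5p, 24 nt: uGUAAACauccuacacucucagcu
miR-30a-3p, 22 nt: cUUUCAGucggauguuugcagu
miR-30e-3p, 22 nt: cUUUCAGucggauguuuacagu

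The leading read of miR-30a-5p and that of miR-30e-5p were 20 nt long, shorter than the RefSeq sequences of 22 nt. The 20-nt read of miR-30a-5p gave 23.8% of its member, and that of miR-30e-5p 24.9%. The leading read of miR-30c-5p was 24 nt long, longer than the RefSeq sequence of 23 nt, and gave 37.4% of its member. It matched the hairpin up to its last base.

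Read lengths differed between the 5p members. miR-30b-5p was nearly uniform, with 76.1% to 81.2% of its reads at 22 nt. miR-30a-5p, miR-30d-5p and miR-30e-5p were spread from 19 to 24 nt, where 20 nt held on average 24.1%, 30.8% and 24.7% of their reads. It was the most frequent length of miR-30d-5p in 6 of 6 mice, of miR-30a-5p in 5 (22 nt in WT 2) and of miR-30e-5p in 4 (22 nt in WT 2 and 24 nt in Tau tg 2). miR-30c-5p was the longest, peaking at 24 nt in each of the 6 mice, with 34.1% to 47.8% at 24 nt and 23.0% to 31.2% at 23 nt.

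**Figure D4:**
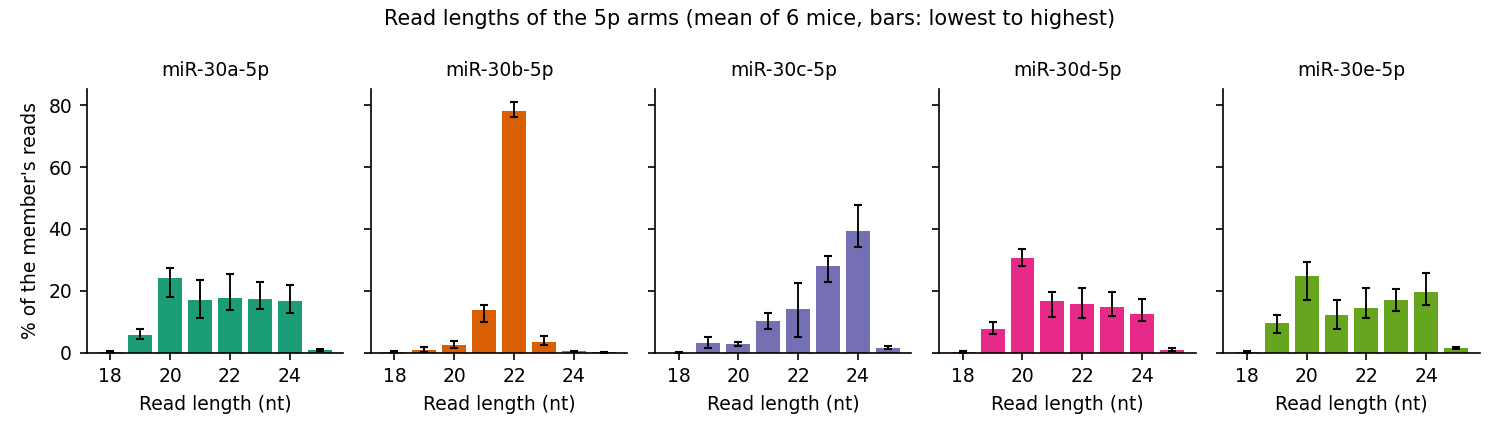
Percent of each 5p member's reads at lengths of 18 to 25 nt, as the mean of the 6 mice with bars from the lowest to the highest mouse. miR-30b-5p peaks at 22 nt with 78.0% on average, miR-30c-5p at 24 nt with 39.4%, and the other 3 are spread from 19 to 24 nt.

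The mean length of each member did not separate the groups. That of miR-30c-5p was 22.9 nt in both groups, that of miR-30b-5p 21.8 nt in both, and that of miR-30d-5p 21.4 nt among WT mice, against 21.5 nt among Tau tg mice. Exact p-values over the 8 members ran from 0.2 to 1 (exact permutation test, n = 3 in each group).

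At the 3′ end, the arms of one hairpin were unlike each other. This was read for the members with a RefSeq hairpin, by asking whether a read matched it to its last base or only without its last 1 to 3 bases, here called a tail. Tails were on 4.21% to 7.46% of miR-30a-5p reads, 3.23% to 5.70% of miR-30c-5p reads and 4.93% to 9.22% of miR-30e-5p reads. They were on 34.3% to 48.5% of miR-30a-3p reads and 33.3% to 48.2% of miR-30e-3p reads, above every 5p value in each of the 6 mice. Most 3p tails were a single U, on 23.3% to 38.7% of miR-30a-3p reads and 24.5% to 43.0% of miR-30e-3p reads. On miR-30a-5p, by contrast, the median over the 6 mice was 3.0% for a single A and 1.55% for a single U. A single U was on 0.755% to 2.59% of miR-30c-5p reads and 1.68% to 3.26% of miR-30e-5p reads. The leading tailed read of miR-30c-5p also ended in a U, so A over U was not shown for all 5p arms. The leading reads of both 3p arms carry such a U, which stands where the hairpin has c. It was at 117, 75.9 and 151 RPM among WT mice, against 113, 162 and 129 RPM among Tau tg mice for miR-30a-3p. For miR-30e-3p it was at 144, 255 and 214 RPM among WT mice, against 144, 161 and 161 RPM among Tau tg mice. An added base that happens to match the hairpin is counted as a match, and a sequencing error at the last bases is counted as a tail, so the share is not an exact measure of added bases.

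The 5′ start, which sets the seed, was sharp for most members. On average 95.5% to 97.2% of the reads of each 5p member began at the reference base in each group. miR-30a-3p was less uniform, with 78.5%, 66.6% and 70.2% at that base among WT mice, against 73.8%, 75.7% and 71.4% among Tau tg mice. Most of the remainder began 1 base later. The shifted reads of miR-30a-3p, whose 6mer seed is UUCAGU in place of UUUCAG, made up 21.5%, 33.0% and 29.6% among WT mice, against 24.4%, 24.3% and 28.5% among Tau tg mice. The leading shifted read is shown with its seed in capitals.
miR-30a-3p, start shifted by 1 base: uUUCAGUcggauguuugcagu

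It was at 37.9, 46.8 and 64.2 RPM among WT mice, against 44.7, 86.1 and 68.3 RPM among Tau tg mice. miR-30e-3p has the same first 17 bases and was shifted in this way in only 0.113% to 6.67% of its reads. The ranges of miR-30a-3p and miR-30e-3p did not overlap over the 6 mice. The widest 95% Wilson interval of the share at the reference start, apart from miR-30d-3p, was 4.16 percentage points to either side.

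The reads were also sorted into classes by member and by start, and some classes did not overlap between the groups. How often such classes do not overlap over all miRNAs was not computed, so their number has no background to be set against. For miR-30e-3p the share at the reference base was 97.4%, 99.8% and 98.9% among WT mice, against 96.1%, 93.3% and 97.3% among Tau tg mice. All 3 Tau tg values lay below the WT values, the gap between WT 1 and Tau tg 3 being small (exact permutation test, p = 0.1, adjusted p = 0.4 over the 8 members, n = 3). For miR-30d-3p it was 97.1%, 97.9% and 100% among WT mice, against 96.8%, 40.0% and 90.0% among Tau tg mice, where the low value was 2 of 5 reads (95% Wilson interval 11.8% to 76.9%). The other 6 members had exact p-values of 0.2 to 0.9 for this share. Rare starts of miR-30a-5p were among the classes that did not overlap. Reads that began 1 base earlier made up 0.903%, 1.04% and 0.857% of that member among WT mice, against 0.407%, 0.666% and 0.581% among Tau tg mice. They include a 21-nt read whose first base, u, stands where the hairpin has c. It was at 12.2, 0 and 23.85 RPM among WT mice, against 0.285, 0 and 0 RPM among Tau tg mice. This class is therefore not a measure of earlier cuts alone.

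**Figure D5:**
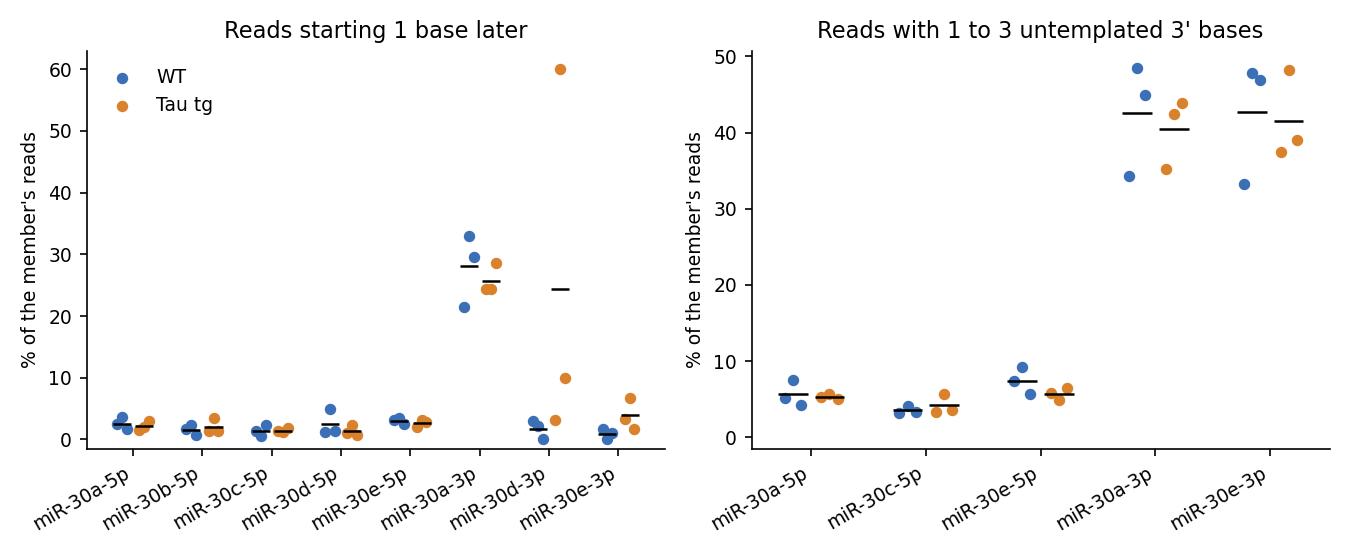
Left, the percent of each member's reads that began 1 base after the reference start; right, the percent with 1 to 3 untemplated 3′ bases for the members with a RefSeq hairpin, with WT in blue, Tau tg in orange and bars at group means. miR-30a-3p stands apart from the other members on the left at 21.5% to 33.0%, except for the 5 reads of miR-30d-3p in Tau tg 2, and both 3p arms lie above the 5p arms on the right.

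Single sequences were tested across the whole table as well. Of the 641 member sequences, 366 had a mean of at least 1 RPM, and limma gave 11 of the 366 (3.01%) an unadjusted p under 0.05, 6 higher and 5 lower among Tau tg mice. Over all 36070 sequences tested the share was 2.23%. 0 of the 366 passed adjustment, where 0.0277% of all sequences did, and the lowest adjusted p of a member sequence was 0.584. edgeR and DESeq2 also gave 0 of the 366 after adjustment, where they called 0.136% and 1.27% of all sequences. At an unadjusted p under 0.05, edgeR gave 3 (0.820%) against 7.11% of all sequences, and DESeq2 gave 9 (2.46%) against 9.27%. Of 154 member sequences above 0 in every mouse, the groups did not overlap for 16 (10.4%), against 9.31% of all such sequences.

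Among these 16, the reads with the largest differences of the means were 24-nt and 19-nt forms. They are shown because all 3 begin at the reference start, and the 2 reads of miR-30e-5p differ only in length.
miR-30c-5p, 24 nt: uGUAAACauccuacacucucagcu
miR-30e-5p, 24 nt: uGUAAACauccuugacuggaagcu
miR-30e-5p, 19 nt: uGUAAACauccuugacugg

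The 24-nt read of miR-30c-5p was at 3201, 2647 and 2874 RPM among WT mice, against 4100, 3261 and 3959 RPM among Tau tg mice, a log2 fold change of 0.37 ± 0.38 (SE; limma adjusted p = 0.584). The 24-nt read of miR-30e-5p was at 830, 917 and 733 RPM among WT mice, against 1015, 932 and 1030 RPM among Tau tg mice. The 19-nt read of miR-30e-5p was at 535, 471 and 505 RPM among WT mice, against 430, 410 and 319 RPM among Tau tg mice. These 3 reads were picked from those whose groups did not overlap, so their lack of overlap is no further result. None passed the limma test (limma unadjusted p = 0.330, 0.562 and 0.448, in the order shown). The SE in that test draws on the spread of the other sequences, not on the read's own values alone. A further read, of miR-30d-5p with its start shifted by 1 base, was at 15.5, 63.0 and 20.2 RPM among WT mice, against 10.1, 0.836 and 0.409 RPM among Tau tg mice (limma unadjusted p = 0.00142, adjusted p = 0.584). Its Tau tg 2 and Tau tg 3 values were 1 read each, under the level of 3 reads. The member sequence with the lowest unadjusted p went the other way. This 23-nt read of miR-30b-5p was at 0.937, 2.71 and 3.67 RPM among WT mice, against 36.6, 32.6 and 18.8 RPM among Tau tg mice (limma unadjusted p = 0.00138, adjusted p = 0.584). Its WT 1 value was also under the level of 3 reads.

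The study rates each 6mer seed by its viability, the percent of cells left alive by a short RNA with that seed, as a mean of 3 murine lines. Toxic seeds have low values. The main seed of all 5 members of the 5p arm, GUAAAC, has a viability of 76.4%. That is above 77.5% of the 4051 seeds in the table, whose median is 64.0%. The 3p seed UUUCAG has 70.1%, and the shifted seed UUCAGU of miR-30a-3p 54.0%. A start shifted by 1 base in the 5p arms gives UAAACA, with 95%.

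Weighted by RPM, the mean seed viability of the 5p reads was 76.8% ± 0.0721 among WT mice, against 76.7% ± 0.07 among Tau tg mice (SD, n = 3; exact permutation test, p = 0.5). That of the 3p reads was 68.0%, 68.2% and 67.6% among WT mice, against 67.6%, 67.2% and 67.5% among Tau tg mice (exact permutation test, p = 0.2, adjusted p = 0.6 over 3 measures, n = 3). With the members left out, the mean viability of all Ago-bound reads was lower by 0.508 to 0.819 percentage points, the most in Tau tg 1.

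The members held nearly the whole pool of reads with their seeds. They gave 96.0% to 97.7% of all reads with the seed GUAAAC. The largest part of the rest came from miR-384-5p, a miRNA with the same seed that is not among the members, with 1.21% to 2.79% of them. Its sequence is shown to compare its seed with that of the miR-30 5p arms, and it lies at chrX:105344332-105344354 on the minus strand (GRCm38.p6).
mmu-miR-384-5p: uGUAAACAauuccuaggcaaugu

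miR-384-5p was at 473, 865 and 377 RPM among WT mice, against 557, 754 and 405 RPM among Tau tg mice, with WT 2 and Tau tg 2 high. Among reads with the seed UUUCAG the members gave at least 98.1% of the RPM in every mouse.

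The other named arms of the family, the 3p strands of miR-30b and miR-30c, were rare. None of the 3 reached 100 RPM in a mouse, and 1 of the 3 had an unadjusted limma p under 0.05, against 3.63% of all miRNAs, and 0 of the 3 an adjusted one. That was miR-30b-3p, at 10.8, 1.36 and 0.917 RPM among WT mice, against 26.2, 23.4 and 20.5 RPM among Tau tg mice. It rested on 23, 2 and 1 reads among WT mice, against 184, 28 and 50 reads among Tau tg mice, and WT 2 and WT 3 were under the level of 3 reads. The groups did not overlap, and limma gave a log2 fold change of 2.69 ± 1.12 (SE; limma unadjusted p = 0.029, adjusted p = 0.896). On recovered reads the unadjusted p of miR-30b-3p was 0.0991 by edgeR and 0.0671 by DESeq2. With limma it lay between 0.0513 and 0.0849 when any one of WT 2, WT 3, Tau tg 1, Tau tg 2 or Tau tg 3 was left out, and at 0.00553 when WT 1 was. Its seed UGGGAU has a viability of 19.0%, against 76.4% for the 5p arm of the same hairpin. miR-30c-1-3p stood at 23.9, 16.3 and 12.8 RPM among WT mice, against 26.8, 10.9 and 18 RPM among Tau tg mice. miR-30c-2-3p stood at 32.8, 68.4 and 2.75 RPM among WT mice, against 39.4, 0 and 25.4 RPM among Tau tg mice. Their shared main seed UGGGAG has a viability of 30.8%.

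The miRNAs whose level followed the summed 5p arms most closely were chosen among 269 miRNAs with a mean of at least 100 RPM, by the SD of the log2 ratio over the 6 mice. They were miR-24-3p (SD 0.0910), miR-222-3p (0.106), miR-29a-5p (0.133), miR-29c-5p (0.158) and miR-126a-5p (0.165), against a median of 0.486 over the candidates. By the same measure, taken against the other 4 members, miR-30a-5p stood at 0.0683, miR-30c-5p at 0.111, miR-30e-5p at 0.141, miR-30b-5p at 0.154 and miR-30d-5p at 0.268. miR-30d-5p was thus the 5p member that followed the others least closely. All these values share the libraries and their scaling.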

How the data were processed

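Ago-bound short RNAs were measured in 3 WT and 3 Tau tg mouse brain samples, grouped by the sample titles. The authors made the deposited RPM values with the SPOROS pipeline. Reads were demultiplexed, trimmed (Trim Galore, per the labels), collapsed to unique sequences, cleared of rare reads, searched with BLAST against small RNA lists, cleared of artificial matches and scaled to library size. Low values are therefore incomplete, since reads below the authors' limit are missing. The seed viability score was used as deposited by the authors. No column of per-sample values was left unused.

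Values were whole multiples of 1 read for at least 99.9% of values (tolerance 0.02 reads plus 0.001 RPM for rounding), which gave 998248 to 6879551 recovered reads per sample. Intervals and the level of 3 reads cover counting error only. Rows of 1 miRNA name were summed. limma 3.58.1 (R 4.3.3) with a mean-variance trend was run on log2(RPM + 1) for the 689 miRNAs and 36070 sequences that averaged 1 RPM or more, with Benjamini-Hochberg adjustment over all of them. Fold changes on this scale understate the change of low rows. Single values per mouse were compared with a two-sided exact permutation test over 20 assignments (SciPy 1.17.1). Python 3.11.15, NumPy 2.4.6, pandas 2.3.3 and Matplotlib 3.10.9 were also used. The limma step was tested on simulated data.

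Starts were read against the RefSeq mature sequences, and, for the 3 members not matched there, against their most abundant read, which departs from the planned rule. miR-30f had no row in the table. The text names all 8 members, the other arms, the leading reads, up to 2 reads in each direction with the largest differences among those whose groups did not overlap, and the 5 miRNAs most like the 5p sum. It also names the member sequence with the lowest unadjusted p and a miR-30a-5p read with an unmatched first base. The members, lists and tests were chosen with earlier results of these data known. Other settings tried were edgeR 4.0.16 and DESeq2 1.42.0 with the recovered reads as input, pseudocounts of 0.1 and 5, quantile or median-of-ratios scaling, limma with no trend, no filter on low rows or one at 10 RPM, the replicate number as a block, only reads of 19 to 25 nt, no shared reads, and every sample left out once.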

Additional observations from a re-analysis of the deposited data

How the results depend on the processing

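Under 16 other settings, 0 of 8 members had a p under 0.05, adjusted or not, and 0 member sequences passed adjustment. Member sequences with an unadjusted p under 0.05 numbered 11 (3.01%, against 2.23% of all sequences). They numbered 7 with a pseudocount of 5 (1.91% against 1.19%) and 3 with edgeR (0.820% against 7.11%). At a mean of at least 10 RPM, where fewer were tested, they numbered 4 (4.08% against 4.28%). With 1 sample left out they numbered 7 to 11 (1.94% to 3.05%, against 1.55% to 2.86% of all sequences). The cause was not tested. The log2 fold change of miR-30e-5p became -0.081 with median-of-ratios scaling, -0.028 with edgeR and -0.068 with DESeq2, where the median of all miRNAs fell from 0.25 to 0.08, 0.05 and 0.01. With 1 sample left out it ran from -0.10 to 0.29, that of miR-30a-5p from -0.0052 to 0.33, that of miR-30d-5p from -0.26 to 0.061, that of miR-30a-3p from 0.0069 to 0.51, that of miR-30b-5p from 0.21 to 0.54, that of miR-30c-5p from 0.041 to 0.44, that of miR-30d-3p from -1.70 to -0.63, that of miR-30e-3p from -0.32 to -0.15 and the 5p sum from -0.017 to 0.33. The Tau tg minus WT difference, with 1 sample left out, ran from -0.970 to 2.52 percentage points for the miR-30a arm share, -0.0352 to 0.649 for the miR-30a-5p share and -0.0868 to 0.00347 for the viability of both arms. For the start it ran from -1.31 to 1.23 (miR-30b-5p), -0.512 to 0.869 (miR-30c-5p), -0.895 to 1.48 (miR-30d-5p), -0.213 to 0.751 (miR-30e-5p) and -0.751 to 5.20 (miR-30a-3p). For mean length in nt it ran from -0.108 to 0.0928 (miR-30c-5p), -0.000384 to 0.136 (miR-30d-5p), -0.0965 to 0.134 (miR-30e-5p) and -0.140 to 0.0322 (miR-30e-3p). Leaving out Tau tg 2 brought the start difference of miR-30d-3p from -22.7 to -4.91. The differences of miR-30b-5p in share and of miR-30e-3p in start kept their direction throughout. Over the miRNAs that averaged 1 RPM or more, samples with the same replicate number did not deviate together (r of -0.00, -0.07 and 0.04). In both groups, however, the 5p sum was highest in replicate 1 and lowest in replicate 2. Whether equal numbers mark a shared preparation was not settled by these values. At an unadjusted p under 0.05, the fit with a replicate block gave 10 member sequences (2.73%, against 2.24% of all sequences). It gave 0 of 8 members, against 3.19% of all miRNAs. With a depth of as few as 998248 reads, miR-30d-3p rested on 5 to 94 reads.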
